A study of Mus musculus with 26 samples.

Results

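The genes described here were counted in the left ventricle of the normotensive mouse strain BPN/3J at several times their count in the hypertensive strain BPH/2J. The 40 members were chosen by measured values: the lowest BPN/3J library had to lie above the highest BPH/2J library, and the BPN/3J median had to be at least 1 CPM (a count scaled to the library's column sum) and at least 4 times the BPH/2J median, with both treatments pooled. Of 40413 genes in the table, 73 met these values, and 33 of them were left out by name, being predicted genes, RIKEN clones, pseudogenes, ribosomal protein genes and 3 symbols listed singly. Counted among the 12524 genes with a BPN/3J median of at least 1 CPM, the 73 were 0.583%. The mirrored rule, for genes higher in BPH/2J, met 119 of 12648 genes (0.941%), of which 71 remained after the same exclusions by name. Because the strain difference chose the members, it is given for them as a description and without a test.

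Polyadenylated RNA was sequenced from left ventricles of BPH/2J and BPN/3J mice that had received once-daily Cmpd17b, at 50 mg/kg/day by intraperitoneal injection, or vehicle for 28 days. Cmpd17b is a small-molecule agonist of formyl peptide receptors. The groups used were BPH/2J with Cmpd17b (6 libraries, a seventh being set aside), BPH/2J with vehicle (7), BPN/3J with Cmpd17b (5) and BPN/3J with vehicle (7). The mice were adult according to the labels, which name no engineered allele. BPH/2J and BPN/3J are inbred strains bred in parallel for high and for normal blood pressure, so each strain stands for 1 fixed genetic background, and a difference between them cannot be told apart from any other difference between the backgrounds. Total counts ran from 25476128 to 48648200 per library, and 3 counts in a library corresponded to 0.0617 to 0.118 CPM.

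The library labelled BPH_Cmpd17b replicate 7 was left out of the groups. It had a summed 33526 CPM of 6 kidney markers, against 0.682 to 100 CPM in the other BPH/2J libraries and 1.21 to 153 CPM in BPN/3J libraries. Its 5 cardiomyocyte markers summed to 32.8 CPM. In the remaining 25 libraries the cardiomyocyte markers summed to a median of 38793 CPM in BPH/2J, against 38570 CPM in BPN/3J, so the labelled tissue was borne out by its defining genes. BPN_vehicle replicate 7 also stood apart, with a voom quality weight of 0.0799, and it was the lowest BPN/3J library for 12 members and the highest for 12 others. BPH_Cmpd17b replicate 6 had the next lowest weight, 0.33. Without both of these libraries the rule found 42 genes, 39 of them among the 40 members.

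Inbred strains carry fixed variants in promoters, splice sites and gene copies, and a gene that one strain transcribes can be nearly silent in the same tissue of another. Families of recently duplicated genes, such as zinc finger repressors, serpins, cytochromes P450 and immune receptors, are known to vary in copy number and expression between mouse strains. Reads from a variant copy can also be assigned to a relative, since alignment uses the genome of a single reference strain, C57BL/6J.

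Position and sequence are shown first, because the rule used neither. Of the 40 members, 36 matched the RefSeq annotation of GRCm38.p6, an older build than the GRCm39 of the deposited counts, and 33 of these were annotated as protein coding. Crnde and Cep83os were annotated as long noncoding RNAs, the only 2 among the 36, and Serpina3h as a transcribed pseudogene. Redic1, Potefam3b, Zfp268 and Cirpil did not match. RefSeq gave promoter windows, 250 bases before to 50 bases after a start, for 29 members and 38 starts. The stretches below run from 150 to 31 bases before the start, 5′ to 3′ in the gene's direction, with matches on either strand to 3 motifs in capitals. The first motif was TATAAA, the core of the TATA box. The others were CCAAT, the core of the CCAAT box, and the GC box core GGGCGG, and no match overlapped another in the stretches shown. They are from the C57BL/6J reference and not from the strains sequenced. Sycp2, Abca4, Atg4a and Dnajc28 are 4 chosen from 7 members that have such a window, a BPN/3J median above 10 CPM and a BPH/2J median under 10% of it, and Atg4a is shown also because its start faces that of Psmd10.
Sycp2 (GRCm38.p6, chr2:178407689-178407808, minus strand): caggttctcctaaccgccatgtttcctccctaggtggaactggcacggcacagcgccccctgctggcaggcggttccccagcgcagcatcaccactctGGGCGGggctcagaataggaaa
Abca4 (GRCm38.p6, chr3:122044310-122044429, plus strand): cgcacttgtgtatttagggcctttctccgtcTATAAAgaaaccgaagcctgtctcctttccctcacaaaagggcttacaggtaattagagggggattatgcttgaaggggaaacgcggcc
Atg4a (GRCm38.p6, chrX:140956757-140956876, plus strand): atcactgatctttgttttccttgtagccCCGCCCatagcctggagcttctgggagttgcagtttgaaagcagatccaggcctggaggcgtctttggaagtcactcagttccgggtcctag
Dnajc28 (GRCm38.p6, chr16:91619030-91619149, minus strand): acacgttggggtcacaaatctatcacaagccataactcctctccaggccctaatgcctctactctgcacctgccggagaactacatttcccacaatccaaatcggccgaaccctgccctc

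The Sycp2 stretch was 63.3% G and C with 1 GGGCGG, and the Abca4 stretch was 49.2% G and C with 1 TATAAA. The Atg4a stretch held GGGCGG on its other strand, and the Dnajc28 stretch held none of the 3 motifs. Over the whole 300-base windows, TATAAA on either strand was found in 5.26% of the members' windows, against 7.91% of windows of all genes tested and 13.6% of all 32851 RefSeq windows. The CCAAT motif was found in 44.7% of the members' windows, against 36.9% and 37.4% in those same 2 sets. GGGCGG was found in 19 of the 38 members' windows, against 58% of windows of genes tested and 35.7% of all windows. The median number of CpG pairs in a window was 9 among the members, 19 among genes tested and 7 among all windows. No match marks a bound site, and the windows do not show the strains' own alleles.

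The members lay on 18 chromosomes. Chromosome 4 held 8 of the 36 placed members (22.2%), against 6.2% of the 12226 placed genes with a BPN/3J median of at least 1 CPM, and chromosome 7 held 5 (13.9%, against 7.52%). The pairs Sycp2 and Cdh4 on chromosome 2, and Zfp982 and Zfp984 on chromosome 4, each had 2 tested genes between them. Ceacam2 and Cyp2b10 on chromosome 7 had 9 between them. The other members had at least 14 tested genes between neighbouring members.

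The label describes the members as nearly private to the normotensive strain, and the values bear that out in part. The median member had a BPH/2J median equal to 9.88% of its BPN/3J median. The share was under 5% in 11 members, under 10% in 20 and under 20% in 34, with 24.8% as the highest. The BPH/2J median was 0 in 3 members, but 31 members had a count in each of the 13 BPH/2J libraries and 9 had a BPH/2J median of at least 1 CPM. In 28 members the lowest BPN/3J library was over 2 times the highest BPH/2J library. Split by treatment, the median share was 8.69% in Cmpd17b libraries and 11.2% in vehicle libraries, with 36 members at 25% or less in Cmpd17b libraries and 39 in vehicle libraries. Split by batch, the median share was 9.75% in batch 1 and 9.92% in batch 2, with a highest share of 27.1% in batch 1 and 36.1% in batch 2. These are the libraries that chose the members, so the splits describe them only. The median coefficient of variation between BPN/3J libraries was 25.1% for the members, against 17.5% over the 12524 genes. Those genes were not matched to the members for level, and 12 members had a BPN/3J median under 2 CPM. BPN_vehicle replicate 7 was the lowest BPN/3J library for 12 members and the highest for 12. The part of level and of that library in the wider spread was not tested. In bulk tissue, fewer cells of a type and less RNA per cell cannot be told apart. The CPM values are not per length of transcript, so levels are compared between strains and not between genes.

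**Figure D1:**
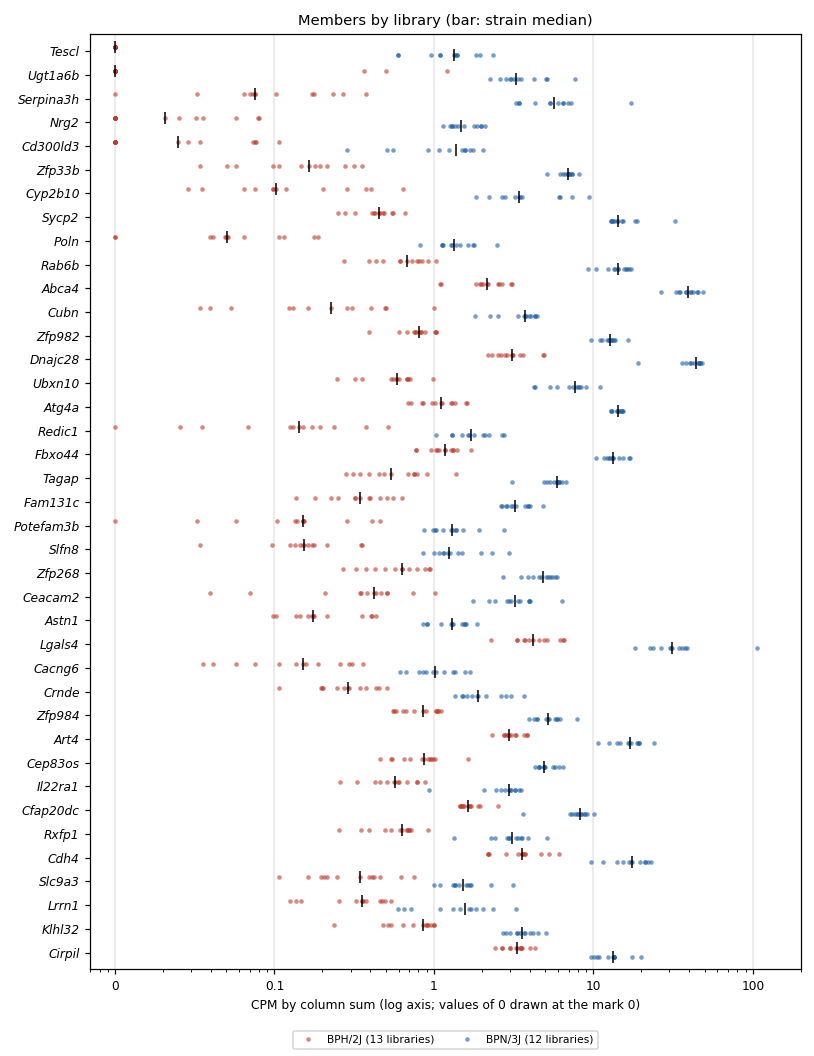
CPM by column sum of 39 members (rows, in order of the ratio of strain medians) in 13 BPH/2J libraries (red) and 12 BPN/3J libraries (blue), on a log axis with values of 0 drawn at the mark 0. Vertical bars are strain medians, and in each row all blue points lie to the right of all red points, as the rule requires, with 31 rows holding no red point at 0.

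Genes of meiosis and DNA repair were among the members with few BPH/2J counts. Sycp2, which codes for a protein of the chromosome axis in the synaptonemal complex of meiotic cells, had a lowest, median and highest level of 0.249, 0.452 and 0.663 CPM in BPH/2J, against 12.8, 14.2 and 32.6 CPM in BPN/3J. BPN_vehicle replicate 7 gave the 32.6 CPM, and the batch 2 replicates 1 and 2 of that group were at 18.1 and 18.9 CPM. The BPN/3J median of Sycp2 was 13.8 CPM in batch 1 and 18.5 CPM in batch 2. Its partners in the complex were scarce in both strains: Sycp3 had a median of 0.075 CPM in BPH/2J, against 0.0185 CPM in BPN/3J, and Sycp1 a median of 0 CPM in both. Redic1, a meiotic recombination gene, ranged from 0 to 0.514 CPM around a median of 0.142 in BPH/2J, against 1.03 to 2.74 CPM around 1.72 in BPN/3J. Poln, a translesion DNA polymerase, had 0, 0.0503 and 0.187 CPM in BPH/2J as lowest, median and highest, against 0.821, 1.33 and 2.5 CPM in BPN/3J. Poln starts 102 bases from Haus3 on the same strand, and Haus3 had medians of 4.42 CPM in BPH/2J, against 4.31 CPM in BPN/3J.

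Transport and membrane traffic were represented by 4 members. Abca4, a lipid flippase known from photoreceptors, had 1.1, 2.14 and 3.07 CPM in BPH/2J as lowest, median and highest, against 26.6, 39.2 and 48.4 CPM in BPN/3J. No BPH/2J library came within 8 times of the lowest BPN/3J library. Rab6b, a small GTPase of Golgi transport known from neurons, had 0.275, 0.682 and 1.03 CPM in BPH/2J, against 9.22, 14.2 and 17.2 CPM in BPN/3J. Its close relative Rab6a had medians of 65.4 CPM in BPH/2J, against 60.1 CPM in BPN/3J, and the sum of both genes overlapped between the strains, at 60.3 to 93.4 CPM in BPH/2J and 57.8 to 94 CPM in BPN/3J. Slc9a3, the sodium and proton exchanger of the renal proximal tubule, had 0.107, 0.344 and 0.754 CPM in BPH/2J, against 1, 1.52 and 3.15 CPM in BPN/3J. Cubn, the cubilin receptor that takes up proteins in the same tubule, had 0.0341, 0.226 and 1 CPM in BPH/2J, against 1.8, 3.75 and 4.46 CPM in BPN/3J.

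Kidney transcripts were present as a trace in all ventricles and are given beside these 2 genes. Kap, a transcript of the proximal tubule, ranged from 0.58 to 80.3 CPM in BPH/2J and from 1.11 to 122 CPM in BPN/3J. All 6 kidney markers were detected in both strains, and both members are given as a ratio to Kap. Per 1000 CPM of Kap, Cubn had a median of 9.52 CPM (3.82 to 58.8) in BPH/2J, against 112 CPM (36.5 to 1871) in BPN/3J, and 11.6 CPM in the kidney-like library. Slc9a3 had a median ratio of 14.1 CPM (4.47 to 353) in BPH/2J, against 62.5 CPM (18.5 to 1186) in BPN/3J, and 8.24 CPM in the kidney-like library. The ranges of the strains overlap for both ratios. In the BPN/3J library with the least Kap, at 1.11 CPM, Cubn was at 1.8 CPM and Slc9a3 at 1.31 CPM. Slc34a1, another proximal tubule gene that is no member, had a median ratio of 93 CPM in BPH/2J, against 90.5 CPM in BPN/3J. The part of kidney transcripts in the strain difference of Cubn and Slc9a3 was not tested.

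Protein handling and autophagy were represented by 5 members. Atg4a, a protease that processes the Atg8 proteins of autophagy, had 0.688, 1.1 and 1.6 CPM in BPH/2J, against 12.8, 14.2 and 15.3 CPM in BPN/3J. Its BPN/3J coefficient of variation, 6.27%, was the smallest among the members. The family members Atg4b and Atg4d overlapped between the strains, with medians of 20.4 CPM in BPH/2J, against 21.9 CPM in BPN/3J for Atg4b, and 44 CPM and 48.6 CPM in the same strains for Atg4d. Dnajc28, a J-domain protein, had 2.19, 3.1 and 4.88 CPM in BPH/2J, against 19.1, 44 and 48.1 CPM in BPN/3J. The 19.1 CPM came from BPN_vehicle replicate 7, and the other BPN/3J libraries were at 36.1 CPM or above. Fbxo44, a substrate-binding F-box protein of a ubiquitin ligase, had 0.775, 1.17 and 1.7 CPM in BPH/2J, against 10.3, 13.2 and 17 CPM in BPN/3J. Its neighbour Fbxo6 had medians of 25.6 CPM in BPH/2J, against 21 CPM in BPN/3J. Ubxn10, a UBX-domain protein of cilia, had 0.246, 0.588 and 0.987 CPM in BPH/2J, against 4.23, 7.62 and 11 CPM in BPN/3J. Klhl32, a Kelch-repeat protein, had 0.236, 0.85 and 1 CPM in BPH/2J, against 2.7, 3.56 and 5.03 CPM in BPN/3J.

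Enzymes of foreign-compound metabolism, and serpins, reached the members through single genes. Cyp2b10, the cytochrome P450 that liver cells induce through the receptor CAR, had 0.0287, 0.103 and 0.637 CPM in BPH/2J, against 1.84, 3.43 and 9.42 CPM in BPN/3J. Ugt1a6b, a glucuronosyltransferase, was at 0 in 10 of 13 BPH/2J libraries and at 0.365, 0.498 and 1.22 CPM in the others, against 2.24 to 7.68 CPM around a median of 3.28 in BPN/3J. Its near copy Ugt1a6a had medians of 0.184 CPM in BPH/2J, against 1.25 CPM in BPN/3J. Ugt1a7c, which shares exons with both, had 1.54 CPM in BPH/2J, against 1.25 CPM in BPN/3J. Serpina3h had 0, 0.0754 and 0.375 CPM in BPH/2J, against 3.26, 5.66 and 17.3 CPM in BPN/3J, where BPN_vehicle replicate 7 was the highest. Hepatocyte transcripts were high in 3 BPN/3J libraries, with the 6 markers summing to as much as 545 CPM, against 4.85 CPM at most in BPH/2J. All 3 were vehicle libraries, BPN_vehicle replicates 1, 2 and 4, at 384, 545 and 61.7 CPM. The other BPN_vehicle libraries were at 1.37 to 11.5 CPM, and every BPN_Cmpd17b library was at 1.31 to 3.42 CPM. In the BPN/3J libraries with the highest sums, 545 and 384 CPM, Ugt1a6b was at 5.07 and 7.68 CPM, Serpina3h at 3.41 and 5.32 CPM and Cyp2b10 at 7.37 and 3.4 CPM. In the BPN/3J library with the lowest sum, 1.31 CPM, they were at 2.24, 3.43 and 3.23 CPM. The part of hepatocyte transcripts in these strain differences, or in the Cmpd17b differences of these genes in BPN/3J, was not tested.

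Receptors, ligands and channels made up a further group. Rxfp1, the receptor of relaxin, had 0.255, 0.628 and 0.921 CPM in BPH/2J, against 1.34, 3.11 and 5.11 CPM in BPN/3J. Nrg2, a neuregulin that binds ErbB receptors, had 0, 0.0206 and 0.0802 CPM in BPH/2J, against 1.15, 1.48 and 2.11 CPM in BPN/3J. Nrg1, the neuregulin best known from cardiac endothelium, had medians of 1.74 CPM in BPH/2J, against 1.64 CPM in BPN/3J. Il22ra1, a subunit of the interleukin 22 receptor, had 0.258, 0.57 and 0.883 CPM in BPH/2J, against 0.937, 2.97 and 3.51 CPM in BPN/3J. That gap was the narrowest among the members with any BPH/2J count, the lowest BPN/3J library being 1.06 times the highest BPH/2J library. Cacng6, a gamma subunit of voltage-gated calcium channels, had 0.0356, 0.151 and 0.36 CPM in BPH/2J, against 0.616, 1.01 and 1.68 CPM in BPN/3J.

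Adhesion and other cell-surface genes followed the same split. Lgals4, a galectin known from gut epithelium, had 2.28, 4.16 and 6.58 CPM in BPH/2J, against 18.1, 30.9 and 107 CPM in BPN/3J, and the 107 CPM came from BPN_vehicle replicate 7. Cdh4, the R-cadherin, had 2.17, 3.58 and 6.12 CPM in BPH/2J, against 9.63, 17.4 and 23 CPM in BPN/3J. Art4, an ecto-ADP-ribosyltransferase that carries the Dombrock blood group in humans, had 2.3, 2.98 and 3.82 CPM in BPH/2J, against 10.8, 16.9 and 24.1 CPM in BPN/3J. Astn1, an astrotactin of neuron migration, had 0.0981, 0.175 and 0.432 CPM in BPH/2J, against 0.85, 1.3 and 1.87 CPM in BPN/3J. Lrrn1, a leucine-rich repeat protein of neurons, had 0.126, 0.356 and 0.535 CPM in BPH/2J, against 0.593, 1.57 and 3.26 CPM in BPN/3J. Ceacam2, of the carcinoembryonic antigen family, had 0.0392, 0.423 and 1.02 CPM in BPH/2J, against 1.76, 3.22 and 6.38 CPM in BPN/3J. Ceacam1, its near copy, had medians of 14.2 CPM in BPH/2J, against 9.76 CPM in BPN/3J, and the sum of both overlapped between the strains, at medians of 14.7 CPM in BPH/2J, against 13.2 CPM in BPN/3J.

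Immune genes among the members are given beside markers of the cells that use them. Tagap, a GTPase-activating protein of T cell activation, had 0.283, 0.537 and 1.37 CPM in BPH/2J, against 3.08, 5.93 and 6.76 CPM in BPN/3J. The 5 markers of T and NK cells summed to medians of 1.98 CPM in BPH/2J, against 0.718 CPM in BPN/3J, the opposite order. By gene, the medians in BPH/2J and BPN/3J were 1.06 and 0.126 CPM for Gzma, and 0.288 and 0.0171 CPM for Ncr1. They were 0.236 and 0.166 CPM for Nkg7, 0.344 and 0.281 CPM for Cd3e, and 0.102 and 0.126 CPM for Cd3d. The T cell gene Cd3d was thus in the same order as Tagap. Tagap1, a near copy of Tagap, was in the opposite order to Tagap, at 14.4 to 17.8 CPM in BPH/2J against 3.68 to 5.54 CPM in BPN/3J. The sum of Tagap and Tagap1 was 14.7 to 18.4 CPM in BPH/2J, against 7.92 to 11.5 CPM in BPN/3J, so the summed pair was higher in BPH/2J. Slfn8, a Schlafen gene, had 0.0341, 0.153 and 0.353 CPM in BPH/2J, against 0.85, 1.24 and 2.97 CPM in BPN/3J. Cd300ld3, of the CD300 family of myeloid receptors, had 0, 0.025 and 0.106 CPM in BPH/2J, against 0.286, 1.38 and 2.04 CPM in BPN/3J. The 4 macrophage markers overlapped, at summed medians of 76.7 CPM in BPH/2J, against 71.6 CPM in BPN/3J.

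Zinc finger genes with a Zfp symbol were the one symbol family with at least 3 members, holding 4 of 342 such genes at 1 CPM (1.17%), against 0.311% of all genes at that level. Those genes include symbols that were left out of the members by name, which lowers the 0.311%. Before names were left out, 73 of 12524 genes with a BPN/3J median of at least 1 CPM (0.583%) met the rule. Zfp982 had 0.392, 0.811 and 1.03 CPM in BPH/2J, against 9.68, 12.7 and 16.6 CPM in BPN/3J. Its neighbour on chromosome 4, Zfp984, had 0.553, 0.86 and 1.1 CPM in BPH/2J, against 3.97, 5.23 and 7.92 CPM in BPN/3J. In the same cluster Zfp990 had the opposite pattern, with a median of 3.38 CPM in BPH/2J, against 0 CPM in BPN/3J, while Zfp979 had 8.91 CPM in BPH/2J, against 9.04 CPM in BPN/3J. Zfp33b had 0.0341, 0.164 and 0.353 CPM in BPH/2J, against 5.14, 6.91 and 8.11 CPM in BPN/3J. Zfp951, which lies near Zfp33b, had medians of 2.33 CPM in BPH/2J, against 0.521 CPM in BPN/3J. Zfp268 had 0.27, 0.629 and 0.948 CPM in BPH/2J, against 2.7, 4.86 and 5.93 CPM in BPN/3J.

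The noncoding and less studied members completed the list. Crnde, a long noncoding RNA beside Irx5, had 0.107, 0.29 and 0.51 CPM in BPH/2J, against 1.36, 1.88 and 3.68 CPM in BPN/3J. Cep83os, transcribed from the opposite strand beside Cep83, had 0.458, 0.863 and 1.63 CPM in BPH/2J, against 4.31, 4.9 and 6.43 CPM in BPN/3J. Their starts lie 177 bases apart, and Cep83 itself had medians of 13.9 CPM in BPH/2J, against 14.2 CPM in BPN/3J. Tescl, a relative of tescalcin, was at 0 in all 13 BPH/2J libraries, against 0.592, 1.35 and 2.36 CPM in BPN/3J. Set against a floor of 3 counts over all BPH/2J libraries, Tescl was at least 201-fold lower in BPH/2J. Cirpil had 2.42, 3.31 and 4.3 CPM in BPH/2J, against 9.61, 13.3 and 20 CPM in BPN/3J. Cfap20dc, named for a domain shared with the ciliary protein CFAP20, had 1.45, 1.63 and 2.54 CPM in BPH/2J, against a lowest value of 3.62 CPM and a median of 8.23 CPM in BPN/3J. Fam131c had 0.136, 0.345 and 0.629 CPM in BPH/2J, against 2.63, 3.22 and 4.85 CPM in BPN/3J. Potefam3b had 0, 0.15 and 0.461 CPM in BPH/2J, against 0.866, 1.3 and 2.75 CPM in BPN/3J.

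The threshold of the rule cut through a continuous range. Just inside it were Cirpil, with a BPH/2J median of 24.8% of the BPN/3J median, Klhl32 (23.9%), Lrrn1 (22.7%), Slc9a3 (22.7%) and Cdh4 (20.6%). Just outside it were Ubb (25.2%), Mal (25.6%), Sptbn5 (29.7%), Npl (29.8%) and Emilin2 (30%). Ubb, a polyubiquitin gene, had medians of 117 CPM in BPH/2J, against 464 CPM in BPN/3J. Ubb was also the non-member whose log2 CPM followed the median member profile most closely over the 25 libraries (Pearson r = 0.981 among 12032 genes compared). Ttc38 (r = 0.973), Adgre5 (0.97), Bcat2 (0.965) and Zfp30 (0.962) came next, and all of these values share the strain split of the libraries.

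Counts that were not whole numbers occurred for 10 members in at least 1 library, as estimated counts do where reads are divided between genes. Over all 26 libraries, the one set aside included, such values occurred in 25 for Tagap, 23 for Ceacam2 and 18 for Potefam3b. They occurred in 16 each for Zfp268 and Zfp984, 15 for Ugt1a6b and 12 for Cd300ld3. Serpina3h had them in 4 libraries, and Cdh4 and Slfn8 in 1 each. The levels of these genes are uncertain to the extent that reads were divided with a copy. In GENCODE vM21, exons of Ugt1a6b overlap those of other Ugt1a genes, and exons of Poln those of Haus3, on the same strand, so strand would not separate those reads. Exons of Cubn, Poln and Ubxn10 overlap a gene on the other strand, and without knowledge of strand those reads cannot be told apart.

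Cmpd17b was tested separately within each strain, since the rule pooled treatments and did not use that contrast. With edgeR's quasi-likelihood test, adjusted over all 15543 genes tested by Benjamini and Hochberg, 0 of 40 members and 0% of all genes were called in BPH/2J, in BPN/3J, or for the difference of the 2 drug effects. All 40 members passed the filter on low counts over the 25 libraries. In a fit of the BPH/2J libraries alone 25 of the 40 passed it, so the others entered the BPH/2J test through their BPN/3J counts, and 0 of the 25 were called. At an unadjusted p under 0.05 there were 1 member in BPH/2J (1.85% of all genes), 2 members in BPN/3J (9.69% of all genes) and 2 members for the difference (3.83% of all genes). DESeq2 also called 0 members in each of the 3, with 4, 2 and 1 members at an unadjusted p under 0.05 in BPH/2J, in BPN/3J and for the difference. Limma voom with sample weights called 0 members, with 1 member at an unadjusted p under 0.05 in each. In batch 1 alone edgeR called 0 members, and the median log2 difference of the members was -0.13 in BPH/2J and 0.04 in BPN/3J. Batch 2 holds no BPN/3J library with Cmpd17b.

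The members' fitted drug differences went both ways, with 14 positive and 26 negative in BPH/2J and 18 positive and 22 negative in BPN/3J. The 26 include Tescl, which had no count in any BPH/2J library, so its sign there has no meaning. Other members with few BPH/2J counts have uncertain signs there. The median absolute log2 difference was 0.24 in BPH/2J, against 0.07 over all genes tested, and 0.21 in BPN/3J, against 0.14. All genes tested were not matched to the members for level, and only 9 members had a BPH/2J median of at least 1 CPM. The part of counting error in these larger absolute values was not tested, so they do not show a larger response to Cmpd17b. The median signed log2 difference of the 40 members was -0.07 in BPH/2J and -0.03 in BPN/3J, against 0.00 and -0.01 over all genes tested in those strains. The 95% interval lay within 1 log2 unit either side of 0 for 24 members in BPH/2J and 30 members in BPN/3J, so a change of 2-fold lay outside the interval for those genes, while for the other members the interval reached 2-fold or more. The median member had an interval of 0.59 log2 units either side of its estimate in BPH/2J and 0.51 in BPN/3J.

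**Figure D2:**
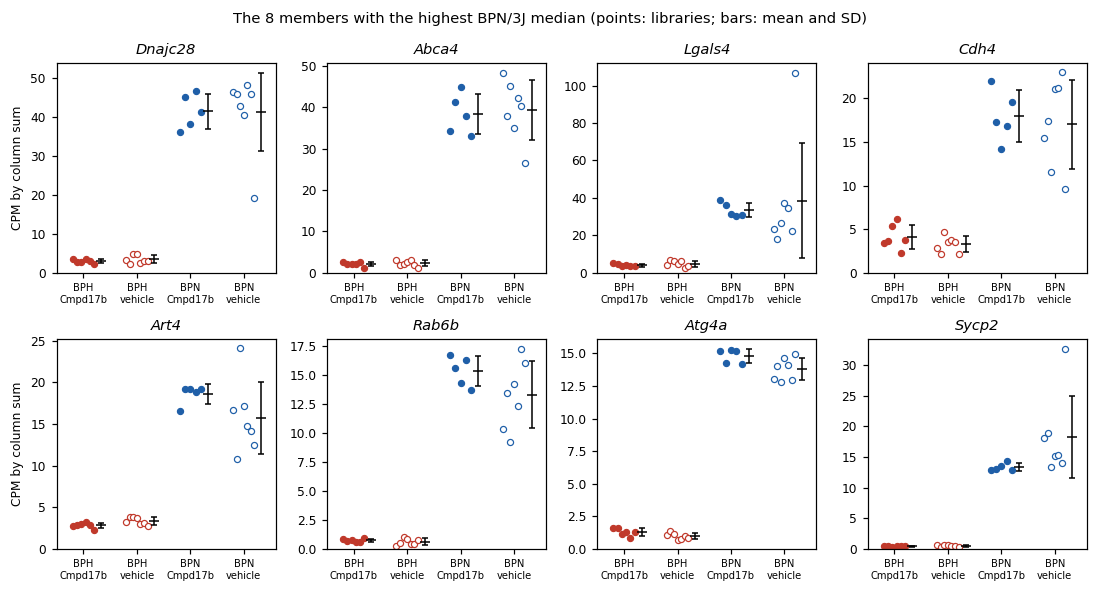
CPM by column sum of the 8 members with the highest BPN/3J medians in the 4 groups, with each point a library and bars giving the mean and SD. Filled points are Cmpd17b and open points vehicle, and the 2 treatments overlap within each strain in every panel, while BPN_vehicle replicate 7 stands apart for Dnajc28 (19.1 CPM), Lgals4 (107 CPM) and Sycp2 (32.6 CPM).

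The members nearest to a call were Atg4a, Sycp2, Crnde and Art4. Atg4a averaged 1.28 ± 0.29 CPM with Cmpd17b and 0.963 ± 0.238 CPM with vehicle in BPH/2J (SD, n = 6 and 7), a log2 difference of 0.42 ± 0.14 (SE) with adjusted p = 1 in edgeR. In BPN/3J Atg4a averaged 14.8 ± 0.552 CPM with Cmpd17b and 13.8 ± 0.861 CPM with vehicle (SD, n = 5 and 7). Sycp2 averaged 13.3 ± 0.61 CPM with Cmpd17b and 18.2 ± 6.67 CPM with vehicle in BPN/3J, a log2 difference of -0.40 ± 0.17 with adjusted p = 0.514 in edgeR. The vehicle mean of Sycp2 includes the 32.6 CPM of replicate 7, and 18.1 and 18.9 CPM in the batch 2 replicates 1 and 2. Crnde averaged 1.62 ± 0.199 CPM with Cmpd17b and 2.53 ± 0.737 CPM with vehicle in BPN/3J, a log2 difference of -0.57 ± 0.25 with adjusted p = 0.514 in edgeR. Its vehicle mean includes 3.68 CPM in replicate 7, and 3.03 and 2.81 CPM in replicates 1 and 2, which are of batch 2. Without BPN_vehicle replicate 7, edgeR gave 0 members an unadjusted p under 0.05 in BPN/3J. Art4 had a log2 difference of -0.24 ± 0.14 in BPH/2J and 0.21 ± 0.13 in BPN/3J, and the difference between the strains, BPN/3J minus BPH/2J, was 0.45 ± 0.19 with adjusted p = 0.917. No value of these 4 genes passed the test.

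Rxfp1, whose ligand is known to relax vessels, averaged 0.606 ± 0.197 CPM with Cmpd17b and 0.575 ± 0.178 CPM with vehicle in BPH/2J. In BPN/3J it averaged 2.75 ± 0.928 CPM with Cmpd17b and 3.4 ± 0.892 CPM with vehicle. Its log2 difference had a 95% interval of -0.47 to 0.64 in BPH/2J and -0.78 to 0.22 in BPN/3J.

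**Figure D3:**
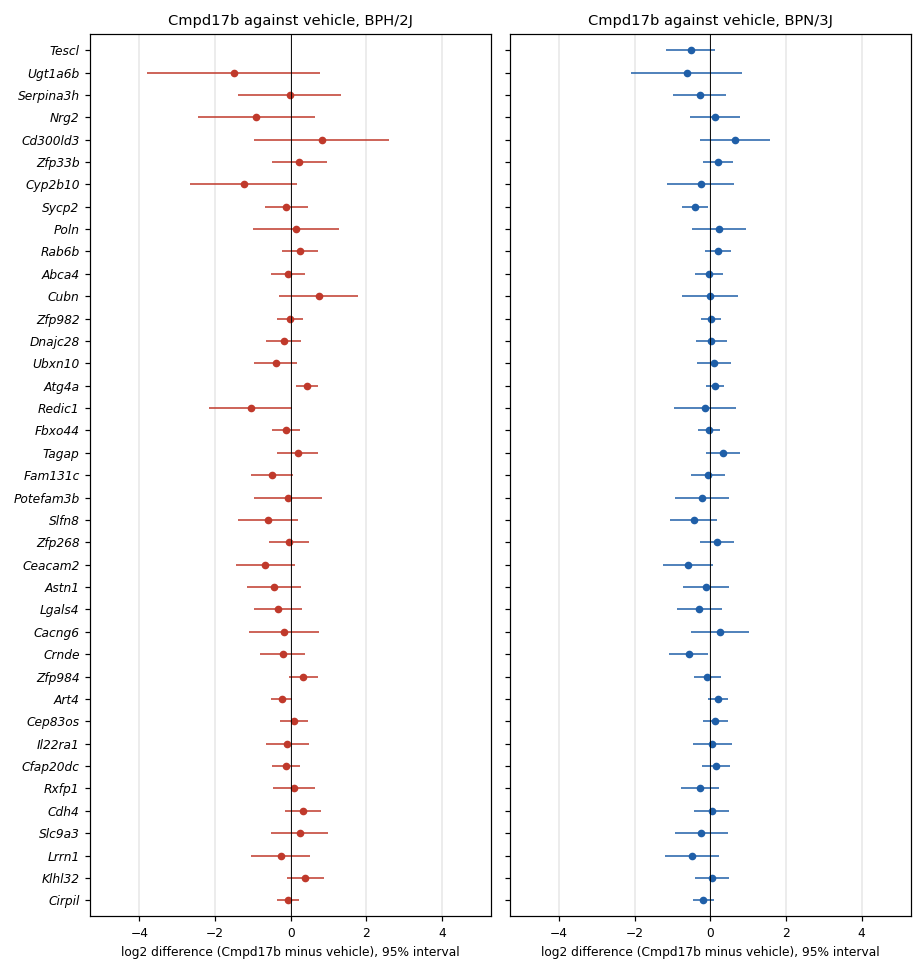
Log2 difference of Cmpd17b minus vehicle, with 95% intervals from edgeR, for 39 members (rows) in BPH/2J (left) and BPN/3J (right). Tescl is not drawn in BPH/2J, where it had no count in either group, and the intervals of the drawn members include 0 except Atg4a in BPH/2J and Sycp2 and Crnde in BPN/3J, none of which passed the adjusted threshold.

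The genes on either side of the members were compared between the strains next. Their values did not choose the members, but members were skipped when neighbours were taken. A neighbour is therefore a gene that failed the rule or was left out by name, while the genes tested as a whole include the members. Genes are ordered by RefSeq on GRCm38.p6, among the genes tested, and calls are those of the edgeR strain contrast over both treatments, in which 4183 of 15543 genes (26.9%) were called. Of the 72 genes nearest to a member, 39 were called (54.2%), 26 lower and 13 higher in BPH/2J. Of the 208 genes within 3 places, 99 were called (47.6%), 58 lower and 41 higher. The median absolute log2 difference was 0.35 for the nearest genes and 0.26 within 3 places, against 0.15 over all genes tested. Of the nearest genes, 11 were at least 2-fold lower (15.3%, against 3.17% of all genes tested) and 3 at least 2-fold higher (4.17%, against 3.47%). For 23 of 36 members both nearest genes were within 2-fold. The count of neighbours called was not set against other regions of the genome, and some neighbours share reads with a member.

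**Figure D4:**
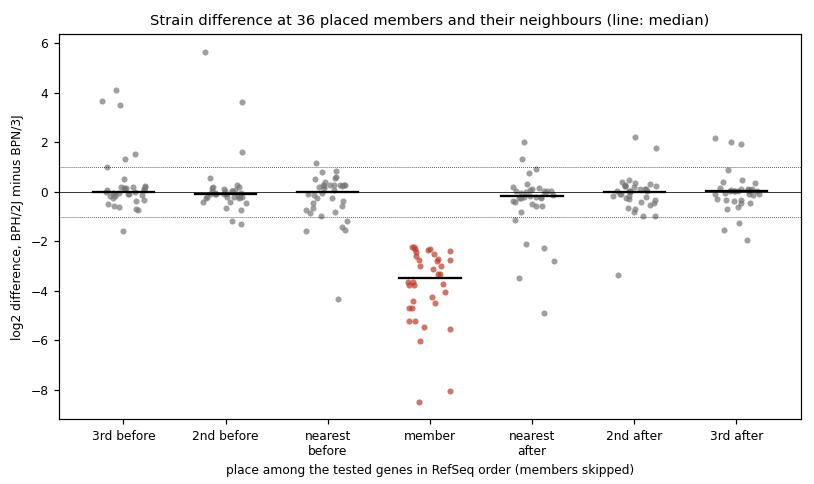
Log2 difference, BPH/2J minus BPN/3J, of the 36 placed members (red) and of the 3 tested genes before and after each, members skipped (grey), with the median as a line and 2-fold marked by dotted lines. The neighbours centre near 0 at each place, while the members lie at or below -2, which the rule fixes.

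Single places, chosen after their values were seen, are given as examples. Of the nearest genes, 11 were at least 2-fold lower in BPH/2J and 3 at least 2-fold higher. The 11 include Gm31255 beside Zfp33b (-4.91 ± 0.37), BC049715 beside Art4 (-4.34 ± 0.59) and Ugt1a6a beside Ugt1a6b (-2.79 ± 0.42). Their BPN/3J medians were 0.824, 0.287 and 1.25 CPM. Dnajc28 lies between Tmem50b and Gart, which were both higher in BPH/2J: Tmem50b had medians of 53.5 CPM in BPH/2J, against 35.1 CPM in BPN/3J (log2 difference 0.57 ± 0.09, edgeR adjusted p = 2.9e-05), and Gart had 33.6 CPM in BPH/2J, against 25.4 CPM in BPN/3J (0.32 ± 0.05). Sycp2 lies beside Ppp1r3d, with 12.2 CPM in BPH/2J, against 13.4 CPM in BPN/3J. The Atg4a start shown above lies 196 bases from that of Psmd10 on the opposite strand, and Psmd10 had medians of 7.54 CPM in BPH/2J, against 8.18 CPM in BPN/3J (log2 difference -0.15 ± 0.06, adjusted p = 0.0957). Cep83, beside Cep83os, differed by -0.07 ± 0.07 (adjusted p = 0.525), and Haus3, beside Poln, by -0.11 ± 0.09 (adjusted p = 0.415). The start of Ubxn10 lies 60 bases from that of Pla2g2c on the opposite strand, and Pla2g2c was lower in BPH/2J as well, with medians of 0 CPM in BPH/2J, against 0.295 CPM in BPN/3J (-3.47 ± 0.53). Serpina3g and Serpina3i, on either side of Serpina3h, were both lower in BPH/2J, by log2 differences of -1.20 ± 0.30 and -2.27 ± 0.37. Zfp991, next to Zfp982, fell in BPH/2J too (-1.60 ± 0.11), and Zfp971, near Sycp2, was higher in BPH/2J (4.11 ± 0.17).

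Other genes of the members' pathways were counted in the same strain contrast, with the members themselves set aside. Of 7 other genes of meiosis tested, 2 were lower in BPH/2J and 1 was higher (42.9% called, against 26.9% of all genes): Meiob, a meiotic single-strand DNA binding protein, was lower (-4.17 ± 0.48), with medians of 0 CPM in BPH/2J, against 0.348 CPM in BPN/3J. Stag3, a meiotic cohesin subunit, was higher in BPH/2J (2.96 ± 0.38). Of 10 other ABCA transporters, Abca8a (0.18 ± 0.06) and Abca9 (0.19 ± 0.07) were higher in BPH/2J and none was lower. Of 9 other genes of xenobiotic oxidation, none was lower and 3 were higher in BPH/2J, among them Por, the electron donor of the cytochromes P450, at 62 CPM in BPH/2J, against 25.7 CPM in BPN/3J (1.19 ± 0.06). Of 5 other serpin A3 genes, 3 were lower and 1, Serpina3n, was higher in BPH/2J (0.87 ± 0.21). Of 22 other Rab and vesicle transport genes, 2 were lower and 2 higher (18.2%), and Rab6a did not pass (0.08 ± 0.06, adjusted p = 0.345).

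Other Zfp genes numbered 371 among those tested, and 25 were lower and 64 higher in BPH/2J (24%, against 26.9% of all genes). In that family 1 further gene was at least 4-fold lower in the fit and 11 were at least 4-fold higher. Glutathione transferases and class I histocompatibility genes hold no member. Of 21 glutathione transferases tested, 9 were lower and 1 higher in BPH/2J, and of 16 class I genes and their light chain, 13 were lower and none higher, with copies in both lists that can share reads. None of these genes was called for Cmpd17b in either strain.

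The kidney-like library labelled BPH_Cmpd17b replicate 7 gave a reading of the members outside the rule. It is 1 library and of another tissue by its markers, so its values carry exact 95% Poisson intervals that cover counting error only. For 21 members it was at or below the highest of the 13 BPH/2J libraries, for 7 it lay between the strains, for 5 within the BPN/3J range and for 7 above all 25 libraries. Counts of 0 were found for 7 members: Tescl, Serpina3h, Cd300ld3, Poln, Redic1, Cacng6 and Rxfp1. Sycp2 had 4 counts there, or 0.136 CPM (0.0371 to 0.349), below its BPH/2J range of 0.249 to 0.663 CPM. Zfp33b had 2 counts, or 0.0681 CPM (0.00824 to 0.246), against 5.14 CPM or more in BPN/3J.

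Members with a known role in kidney were the highest in that library. Cubn had 290 CPM (284 to 296) and Slc9a3 206 CPM (200 to 211). Ugt1a6b had 31.1 CPM (29.1 to 33.1), Ceacam2 27.1 CPM (25.3 to 29.1) and Ubxn10 19.1 CPM (17.5 to 20.7), each above its BPN/3J range. Il22ra1 at 4.05 CPM (3.4 to 4.8) and Lrrn1 at 4.66 CPM (3.9 to 5.5) were also above all 25 libraries. The interval of Il22ra1 includes its highest BPN/3J value, 3.51 CPM, so its place above that range is within counting error. Rab6b, with 11 CPM (9.83 to 12.3), lay within its BPN/3J range of 9.22 to 17.2 CPM, as did Fam131c, Potefam3b, Zfp984 and Cep83os in theirs. Abca4, with 6.77 CPM (5.86 to 7.78), and Atg4a, with 3.03 CPM (2.43 to 3.73), lay between the strains. With this library counted as BPH/2J, 28 members met the rule.

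**Figure D5:**
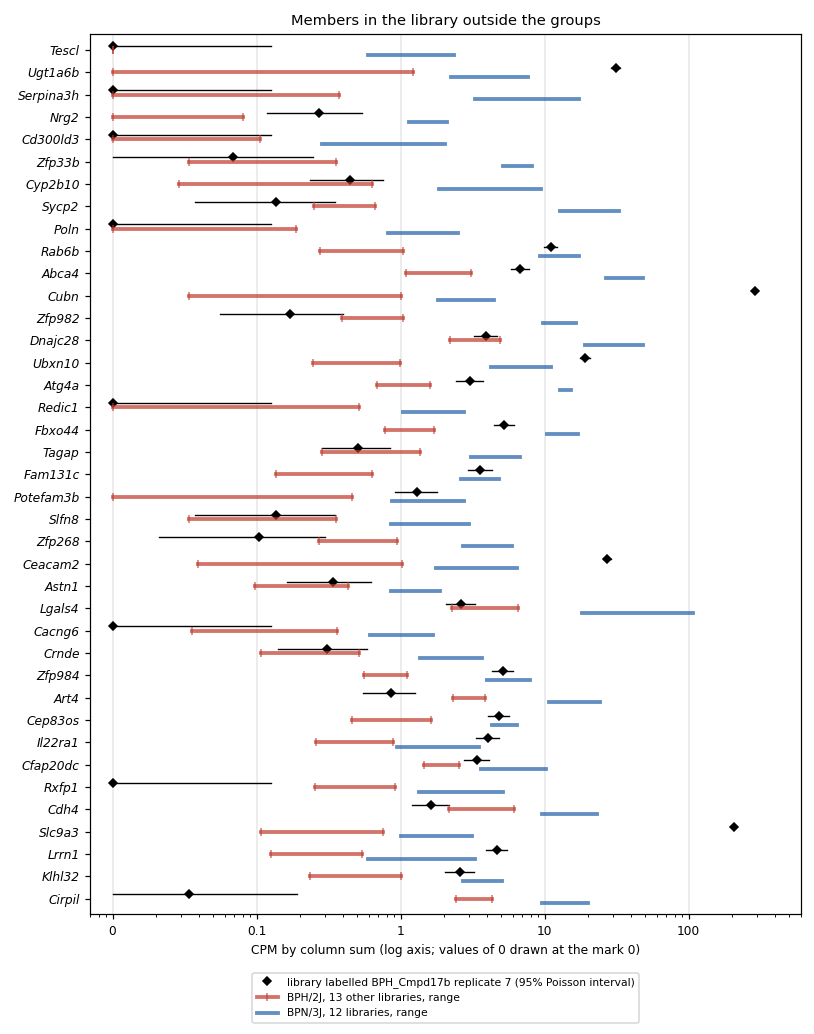
CPM by column sum of 39 members in the library labelled BPH_Cmpd17b replicate 7 (black diamonds with exact 95% Poisson intervals), beside the range of the 13 other BPH/2J libraries (red) and of the 12 BPN/3J libraries (blue), on a log axis with 0 drawn at the mark 0. The diamond lies within or below the red range for 21 members and to the right of the blue range for 7, among them Cubn at 290 CPM and Slc9a3 at 206 CPM.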

How the data were processed

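Left ventricular RNA of 26 mice was measured, and 25 libraries were used. Per the submitters' processing notes, Trim Galore 0.6.7, STAR 2.7.9a and the build GRCm39 (mm39) were used. For the counting program, annotation and strand setting, nothing was found: not given in the sources used here. The authors deposited 1 table of expected counts, of which 2.21% lay more than 0.01 from a whole number. CPM were taken from these values by column sum, and counts were rounded before testing. Each library has its own animal identifier in its title and counts as 1 mouse. No 2 libraries of a group were identical among 73 pairs. Groups came from the labels, and BPN_Cmpd17b holds batch 1 only.

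The edgeR 4.0.16 quasi-likelihood test (R 4.3.3) used TMM scaling, filterByExpr, 1 coefficient per group and a batch term, with Benjamini-Hochberg adjustment over 15543 genes and a threshold of 0.05. Standard errors were derived from the F statistic. DESeq2 1.42.0 and limma 3.58.1 (voom) were alternatives, beside other scalings, filters, batches, libraries and limits of the rule. Genes most like the members were ranked by Pearson correlation of log2 CPM with a pseudocount of 0.05 CPM. The fit was tested on simulated data. Names, gene order and promoter sequences are from RefSeq on GRCm38.p6 and exon overlaps from GENCODE vM21. Named genes were all members, the 5 genes outside the threshold, the 5 most alike, neighbours, near copies and genes of the lists. Of the genes counted, 1 member and 1 gene of the lists are not reported here by name. The members and the lists were chosen with earlier results of these data known, and the near copies, the single neighbours named and the 2 libraries of low weight after their values were seen.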

Additional observations from a re-analysis of the deposited data

Results flagged for a closer look

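Within the 4 groups, 23 of 154 sets of values of a member had a library set apart from the rest by a gap that is large for the range of the group. The limit used is passed by about 1 set in 20 where values are normally distributed. Many of these values are low counts, for which that rate was not tested, so the 23 are not shown to be an excess. Of the 23, 7 were in BPN_vehicle replicate 7. It was the highest of its group for Lgals4 (107 CPM), Sycp2 (32.6 CPM), Serpina3h (17.3 CPM) and Ceacam2 (6.38 CPM), and the lowest for Dnajc28 (19.1 CPM), Cfap20dc (3.62 CPM) and Il22ra1 (0.937 CPM). BPH_Cmpd17b replicate 6 was the highest of its group for Potefam3b (0.461 CPM) and Astn1 (0.354 CPM). BPH_Cmpd17b replicate 2 was the highest for Cyp2b10 and for Serpina3h, both at 0.375 CPM.

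The other values set apart in BPH/2J with Cmpd17b were Cfap20dc in replicate 5 (1.94 CPM, high), Ugt1a6b in replicate 1 (0.498 CPM, high) and Sycp2 in replicate 3 (0.275 CPM, low). In BPH/2J with vehicle they were Cfap20dc in replicate 2 (2.54 CPM, high), Ugt1a6b in replicate 3 (1.22 CPM, high), Ubxn10 in replicate 6 (0.987 CPM, high) and Zfp982 in replicate 5 (0.392 CPM, low). In BPN/3J with Cmpd17b they were Cyp2b10 in replicate 5 (6.2 CPM, high), Art4 in replicate 1 (16.5 CPM, low) and Zfp982 in replicate 4 (9.68 CPM, low). In BPN/3J with vehicle, beside replicate 7, they were Slc9a3 in replicate 6 (3.15 CPM, high) and Zfp33b in replicate 2 (5.14 CPM, low).

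In the library labelled BPH_Cmpd17b replicate 7, which is outside the comparisons, 7 members were above all 25 other libraries: Cubn (290 CPM), Slc9a3 (206 CPM), Ugt1a6b (31.1 CPM), Ceacam2 (27.1 CPM), Ubxn10 (19.1 CPM), Lrrn1 (4.66 CPM) and Il22ra1 (4.05 CPM). That library also had 33526 CPM of kidney markers, whose part in these levels was not tested.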

How the results depend on the processing

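The rule found 40 genes, and 36 of 40 alternatives gave a count within 1.5 times of that. Leaving out 1 library at a time gave 39 to 43. The count was 260 in batch 2 alone, which has 3 BPH/2J and 2 BPN/3J libraries, 86 with a fold of 2, 23 with a fold of 8, and 17 with a median of at least 5 CPM. TMM scaling gave 43 genes, which included the 40 members. The drug tests called 0 members under all alternatives run: 23 in BPH/2J, 22 in BPN/3J and 34 for their difference, leaving out single libraries included, where the lowest and highest count were 0 and 0. The median log2 difference of the members ran from -0.13 to 0.13 in BPH/2J and from -0.10 to 0.04 in BPN/3J, and without 1 library each from -0.11 to -0.06 and from -0.07 to 0.02. Its sign was opposite in 1 alternative in BPH/2J and in 5 in BPN/3J. No paired analysis was possible because replicate numbers were given in sample order and pair no mice. The alternatives of a scaling without 15 mitochondrial genes (45 found) and 23 libraries (42 found) were added after the data were seen. Members with few BPH/2J counts have wide intervals for the drug there, and counts shared with near copies or overlapping genes stay uncertain.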
